A study of Homo sapiens with 4 samples.

Results

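AMOTL2, AMOTL1, AXL, F3, AJUBA, CRIM1, NT5E, ARHGEF17, FJX1 and NUAK2 are 10 genes known as transcriptional targets of the coactivator YAP. They were taken by name, as YAP targets other than the CCN genes, from the 58735 gene identifiers measured in each library. Of these symbols, 8, all except AMOTL1 and AJUBA, also stand in a 22-gene signature of YAP and TAZ targets. The cells were HCT116, a human colorectal carcinoma line, transfected with siRNA and harvested 48 h later. There were 2 libraries from cells that received control siRNA and 2 from cells that received siRNA against KIF26B, which encodes a kinesin family protein. The comparison asks which transcripts change when KIF26B is targeted. No other treatment or allele distinguished the groups, and both were grown in McCoy's 5A medium with serum. Which of the siRNAs against KIF26B went into which library is not stated, nor whether the libraries of a group came from separate cultures, so that P values measure only the spread between these libraries, which may be technical.

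YAP and its relative TAZ do not bind DNA themselves. When the kinases of the Hippo pathway leave them unphosphorylated, they enter the nucleus and switch on genes through the TEAD transcription factors, often at elements also bound by AP-1. The pathway restrains the growth of epithelia and reads cell contact and tension in the actin cytoskeleton, and YAP activity is known to drive regeneration and tumor growth in the intestine. Several of its targets feed back on the pathway, while others act at the cell surface or on the cytoskeleton.

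The promoters of these genes differed in the short letters that the 2 factor families are known to prefer. RefSeq windows from 250 bases before to 50 bases after an annotated start (GRCh38.p14) were matched by symbol for 8 of the 10 genes, in 11 windows. The letters GGAATG, the core of the TEAD motif, were searched on both strands and stood in 4 of the 11 windows, 1 each for AMOTL2, AXL, AJUBA and NUAK2, against 14.03% of the 35116 RefSeq windows of the same length. The letters TGANTCA, an AP-1 motif, stood in 1 of the 11 windows, that of F3, against 7.71% of all windows. No match of one string overlapped a match of the other in these windows. The 5 windows that hold a match are printed below, 5′ to 3′ on the strand of the gene, with the matched letters in capitals, to show where the strings lie. CRIM1 and ARHGEF17 had no entry in the table. Whether a match goes with the size of a difference in expression was not tested. The AMOTL2 window is chr3:134374398-134374697 (minus strand), at a second annotated start, and its match begins 69 bases before that start, read on the opposite strand. The NUAK2 window is chr1:205321696-205321995 (minus strand) and has 2 matches, which begin 197 bases before the start on the opposite strand and 18 bases before it on the strand of the gene. The AXL window is chr19:41226505-41226804 (plus strand), at a second annotated start, with the match 212 bases before the start on the opposite strand. The AJUBA window is chr14:22976793-22977092 (minus strand), likewise at a second start, with the match 59 bases before the start. The F3 window is chr1:94541710-94542009 (minus strand), with 2 AP-1 matches that begin 223 and 210 bases before the start.
AMOTL2: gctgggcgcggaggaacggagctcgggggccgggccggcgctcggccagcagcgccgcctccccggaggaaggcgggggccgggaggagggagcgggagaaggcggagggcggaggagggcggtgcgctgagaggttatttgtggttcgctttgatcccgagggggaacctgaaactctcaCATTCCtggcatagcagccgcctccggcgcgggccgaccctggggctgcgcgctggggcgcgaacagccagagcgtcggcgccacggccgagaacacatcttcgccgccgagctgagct
NUAK2: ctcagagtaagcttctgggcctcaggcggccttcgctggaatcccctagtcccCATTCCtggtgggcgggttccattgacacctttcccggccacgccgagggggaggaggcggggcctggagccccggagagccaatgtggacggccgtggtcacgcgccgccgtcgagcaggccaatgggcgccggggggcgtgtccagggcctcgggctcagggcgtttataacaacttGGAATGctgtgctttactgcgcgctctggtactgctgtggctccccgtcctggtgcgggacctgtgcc
AXL: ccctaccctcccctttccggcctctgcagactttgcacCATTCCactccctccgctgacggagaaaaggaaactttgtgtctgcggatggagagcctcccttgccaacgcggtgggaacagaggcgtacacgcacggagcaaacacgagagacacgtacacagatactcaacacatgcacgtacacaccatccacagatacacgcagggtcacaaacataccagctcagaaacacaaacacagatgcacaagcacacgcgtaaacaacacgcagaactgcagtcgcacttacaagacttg
AJUBA: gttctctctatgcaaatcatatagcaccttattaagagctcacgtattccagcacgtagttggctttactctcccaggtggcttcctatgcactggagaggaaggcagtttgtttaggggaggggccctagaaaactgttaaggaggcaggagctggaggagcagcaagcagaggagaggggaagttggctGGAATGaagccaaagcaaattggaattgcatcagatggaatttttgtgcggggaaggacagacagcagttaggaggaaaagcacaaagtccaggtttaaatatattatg
F3: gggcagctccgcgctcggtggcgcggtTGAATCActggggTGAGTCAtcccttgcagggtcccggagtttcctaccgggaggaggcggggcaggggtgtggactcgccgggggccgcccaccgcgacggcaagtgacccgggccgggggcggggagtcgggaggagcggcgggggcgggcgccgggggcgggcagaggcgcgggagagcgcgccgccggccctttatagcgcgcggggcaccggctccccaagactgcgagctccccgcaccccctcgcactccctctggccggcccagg
A match is a string of letters and not a measured binding site. The windows of AMOTL1, NT5E and FJX1 and the first windows of AMOTL2, AXL and AJUBA held neither string.

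The libraries held 19191455 to 24839057 reads on genes, as recovered from the deposited values. KIF26B itself was near the limit of detection, at 31 and 73 reads in the control siRNA replicates 1 and 2 and at 43 and 8 reads in the libraries labelled KIF26B siRNA replicates 1 and 2. In FPKM, the fragments per kilobase of transcript, scaled to library size, that the authors deposited, these were 0.110, 0.205, 0.140 and 0.0307, so the library labelled KIF26B siRNA replicate 1 lay between the controls and only replicate 2 lay below both. Mitochondrial genes took 6.83% and 6.84% of reads in the control libraries and 9.60% and 7.70% in the KIF26B siRNA libraries, and their part in the results was not tested. The control libraries differed from each other by less than the KIF26B siRNA libraries did, with a median squared difference of 2.36 against 16.3 times the counting noise. The epithelial markers EPCAM, CDH1, KRT8, KRT18 and KRT19 were present at 17.7 FPKM or more in every library, whereas VIL1 of the colon brush border was at 0.0368 FPKM or less. The keratin genes KRT8 and KRT18 were lower after KIF26B siRNA by -0.43 and -0.51 on the log2 scale, at an unadjusted P below 0.05, CDH1 differed by -0.33, EPCAM by 0.08 and KRT19 by 0.14, none of these 3 past it, and the part of this in the results was not tested. Among 5 markers of other cells found in the files, CD3E was at 0 in all libraries, PTPRC, CD68 and COL3A1 were at 0.0555 FPKM or less, and COL1A1 lay between 4.74 and 8.69 FPKM. RNA was measured in bulk, so that fewer cells expressing a gene and less RNA per cell cannot be told apart.

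**Figure D1:**
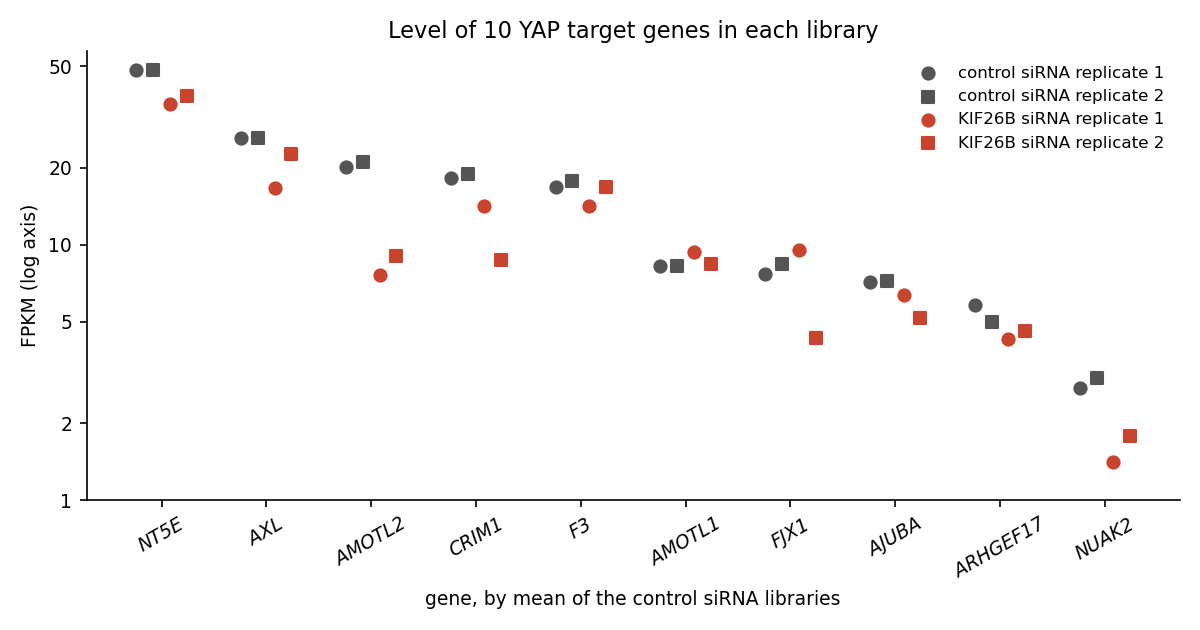
Level of each of the 10 YAP target genes in FPKM on a log axis, with circles for replicate 1 and squares for replicate 2, grey for control siRNA and red for KIF26B siRNA. The genes are ordered by their control mean, from NT5E at 48.2 to NUAK2 at 2.88 FPKM, and the red symbols of AMOTL2 lie well below the grey ones.

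In the control cells the 10 genes spanned more than an order of magnitude in FPKM, which is scaled to length and can be compared between genes. NT5E was the highest at 48.2 ± 0.042 FPKM (SD, n = 2), followed by AXL, AMOTL2, CRIM1 and F3 at between 26.2 and 17.3 FPKM. AMOTL1 and FJX1, at 8.25 ± 0.011 and 8.03 ± 0.53 FPKM (SD, n = 2), were the only neighbours in this order whose libraries overlapped, and AJUBA, ARHGEF17 and NUAK2 followed. In the KIF26B siRNA libraries NT5E and AXL kept ranks 1 and 2 by mean, AMOTL2 stood at rank 6 instead of 3, and F3 stood at rank 3 instead of 5. The other 6 genes were at their control rank except AMOTL1, which moved from 6 to 5. After KIF26B siRNA the libraries of AXL and F3 overlapped, as did those of each pair of neighbours from CRIM1 through AMOTL1, AMOTL2 and FJX1 to AJUBA, so that this order was less sharp than in the control cells.

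AMOTL2 showed the largest difference of the 10. The gene (ENSG00000114019, chromosome 3, 134355345 to 134375417 in GRCh38.p14) encodes a junctional scaffold of the angiomotin family that binds YAP and can hold it in the cytoplasm, so that it is both a target and an inhibitor of YAP. Its level was 20.1 and 21.2 FPKM in the control libraries and 7.63 and 9.06 FPKM after KIF26B siRNA. Neither KIF26B siRNA library reached the controls, with levels at 37.03% and 43.96% of the control mean. The difference was -1.21 on the log2(FPKM + 1) scale, with a standard error of 0.14 and a 95% interval from -1.59 to -0.84, at an unadjusted P of 0.000854 and an adjusted p of 0.242 in limma. The gene passed the thresholds the study used, an unadjusted P below 0.05 and a log2 change beyond 1, but not the adjustment over the 14523 genes tested. A pseudogene, RPL39P5, shares 2.89% of the exon bases of AMOTL2 on the same strand. Among the genes tested, 0.399% had a more negative difference.

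AMOTL1, the paralog with a like role at tight junctions (ENSG00000166025, chromosome 11, 94706460 to 94876748), had no call. It was at 8.24 and 8.26 FPKM in the control libraries and at 9.33 and 8.39 FPKM after KIF26B siRNA. In the deposited FPKM the KIF26B siRNA libraries were both above the controls, replicate 2 by little. A log2 difference of 0.09 was found (SE 0.12, 95% interval -0.24 to 0.42, adjusted p = 0.724 in limma), so that a rise of the size of the upper bound could not be told from none. With scaling by total recovered reads the difference was 0.05, and replicate 2 no longer lay above the controls. The ratio of AMOTL2 to AMOTL1 in FPKM was 2.44 and 2.56 in the control libraries and 0.818 and 1.08 in the KIF26B siRNA libraries, which did not overlap. The ratio was not tested. AMOT, the third member of the family, was at 2.33 and 2.51 FPKM in the control libraries and at 1.905 and 1.601 FPKM after KIF26B siRNA, a log2 difference of -0.32 (SE 0.12, unadjusted P = 0.064 and adjusted p = 0.324 in limma). In limma-voom on recovered reads the AMOT difference was -0.47 (unadjusted P = 0.0441 and adjusted p = 0.270).

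AJUBA (ENSG00000129474, chromosome 14, 22971177 to 22982551) encodes a LIM protein of cell junctions that binds and restrains the LATS kinases. It was at 7.15 and 7.19 FPKM in the control libraries and at 6.36 and 5.18 FPKM after KIF26B siRNA. Replicate 1 was close to the controls and replicate 2 lower, at 88.8% and 72.3% of the control mean. Its log2 difference was -0.28 (SE 0.14, 95% interval -0.66 to 0.11), with an adjusted p of 0.402 in limma. It was -0.40 without KIF26B siRNA replicate 1 and -0.15 without replicate 2. The related LIM genes LIMD1 and WTIP had log2 differences of -0.07 and -0.19, neither past an unadjusted P of 0.05.

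**Figure D2:**
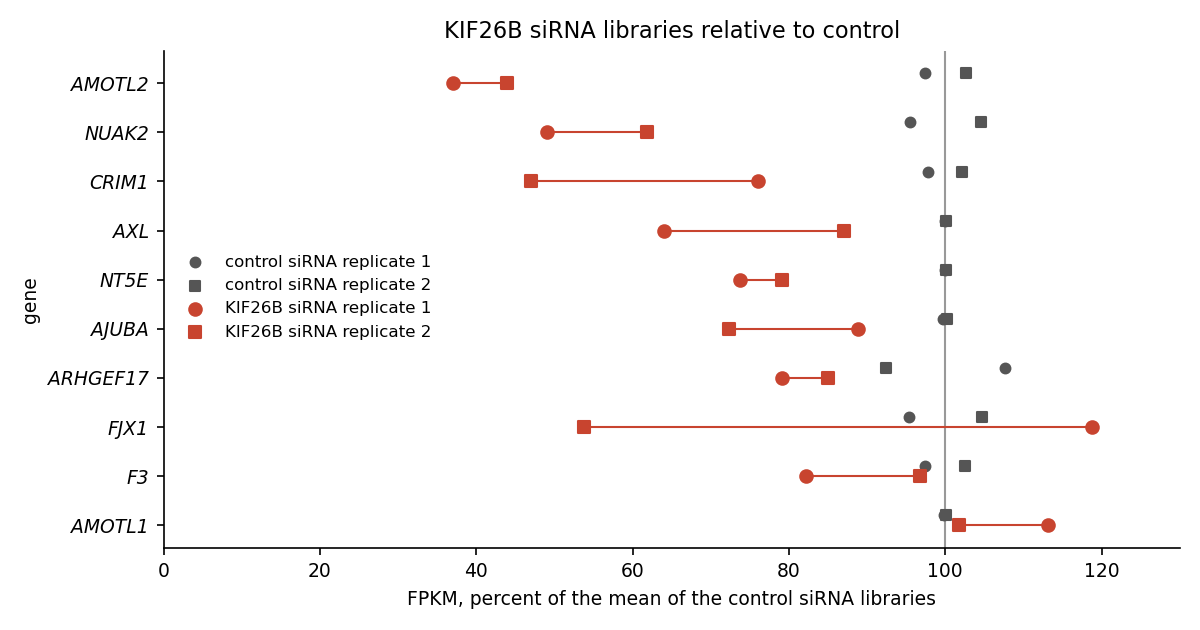
Level of each gene in every library as a percentage of the mean of the control siRNA libraries, with red circles and squares for KIF26B siRNA replicates 1 and 2 joined by a line and grey symbols for the control siRNA replicates. AMOTL2 sits at 37.03% and 43.96%, AMOTL1 lies to the right of 100%, and the line of FJX1 runs from 53.7% to 119%.

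Of the 4 genes for cell surface proteins, NT5E passed an unadjusted P of 0.05 in limma on log2(FPKM + 1). CRIM1, AXL and F3 did not, CRIM1 by little. NT5E (ENSG00000135318, chromosome 6, 85450083 to 85495784) encodes CD73, the ectoenzyme that makes adenosine from AMP outside the cell. Both of its control libraries were at 48.2 FPKM, and the KIF26B siRNA libraries were at 35.5 and 38.1 FPKM. The 2 groups stood well apart, at 73.7% and 79.1% of the control mean. The groups differed by -0.38 on the log2 scale (SE 0.11, 95% interval -0.69 to -0.07), with an unadjusted P of 0.0282 and an adjusted p of 0.273 in limma. Without control siRNA replicate 1 or 2 the difference stayed at -0.38 while the unadjusted P in limma was 0.246 and 0.249. Of 10 genes that make, break down, carry or sense adenosine, 7 were tested and none passed an unadjusted P of 0.05 in either direction, with a median log2 difference of 0.15.

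CRIM1 (ENSG00000150938, chromosome 2, 36355778 to 36551135) encodes a transmembrane protein that binds bone morphogenetic proteins. It was at 18.2 and 19.0 FPKM in the control libraries and at 14.1 and 8.75 FPKM after KIF26B siRNA. Both KIF26B siRNA libraries were lower, and they differed from each other by 1.62-fold, more than the gap between replicate 1 and the controls. On the log2 scale the difference was -0.69 (SE 0.25, 95% interval -1.38 to 0.0032), at an unadjusted P of 0.0507 and an adjusted p of 0.305 in limma. With the replicate number as a block, at least 1 FPKM in every library or a variance trend, the unadjusted P in limma was 0.0426, 0.0441 and 0.0435. In limma-voom on recovered reads it was 0.0300. In the other limma fits of all 4 libraries it was 0.0531 to 0.0643. The difference was -1.01 without KIF26B siRNA replicate 1 and -0.37 without replicate 2, with unadjusted P values of 0.00134 and 0.0164 in limma when the lone library was assumed to vary like the controls. BMP4, a ligand it can bind, was at 21.6, 22.5, 42.1 and 19.4 FPKM in the same order of libraries, and of 3 such ligands the 2 tested had no call.

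AXL (ENSG00000167601, chromosome 19, 41219223 to 41261766) is a receptor tyrosine kinase for the ligand GAS6. It was at 26.1 and 26.2 FPKM in the control libraries and at 16.8 and 22.8 FPKM after KIF26B siRNA. Here replicate 1 was the lower, at 64.1% of the control mean against 87.0% for replicate 2. A log2 difference of -0.40 was found (SE 0.18, 95% interval -0.91 to 0.11), with an adjusted p of 0.366 in limma. It was -0.19 without KIF26B siRNA replicate 1 and -0.61 without replicate 2. The related receptor MERTK was at 6.22 and 5.44 FPKM in the control libraries and at 3.43 and 4.39 FPKM after KIF26B siRNA, a log2 difference of -0.48 (unadjusted P = 0.0384 and adjusted p = 0.288 in limma). The third receptor, TYRO3, and the ligands GAS6 and PROS1 had no call, and the ratio of AXL to MERTK was between 4.202 and 5.18 in all 4 libraries.

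F3 (ENSG00000117525, chromosome 1, 94529173 to 94541759) encodes tissue factor, the cell surface trigger of coagulation. It was at 16.9 and 17.8 FPKM in the control libraries and at 14.2 and 16.8 FPKM after KIF26B siRNA. Replicate 2 was only just below the lower control. Its log2 difference was -0.16 (SE 0.14, 95% interval -0.53 to 0.22), with an adjusted p of 0.602 in limma. It was -0.04 without KIF26B siRNA replicate 1 and -0.27 without replicate 2. Among 5 tested partners of tissue factor, F2RL1, a protease receptor it can signal through, was lower, from 133 and 132 FPKM to 100.4 and 92.1 FPKM (log2 difference -0.46, unadjusted P = 0.0164 and adjusted p = 0.252 in limma). TFPI, its inhibitor, was higher, from 1.10 and 1.29 FPKM to 2.93 and 1.99 FPKM (log2 difference 0.65, unadjusted P = 0.0233 and adjusted p = 0.267 in limma). In limma-voom on recovered reads its difference was 1.03, past the thresholds of the study (adjusted p = 0.195). PROCR, the protein C receptor, was higher too, from 20.4 and 21.7 FPKM to 32.2 and 35.2 FPKM (log2 difference 0.65, unadjusted P = 0.00554 and adjusted p = 0.242 in limma). None of the 3 passed the adjustment.

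**Figure D3:**
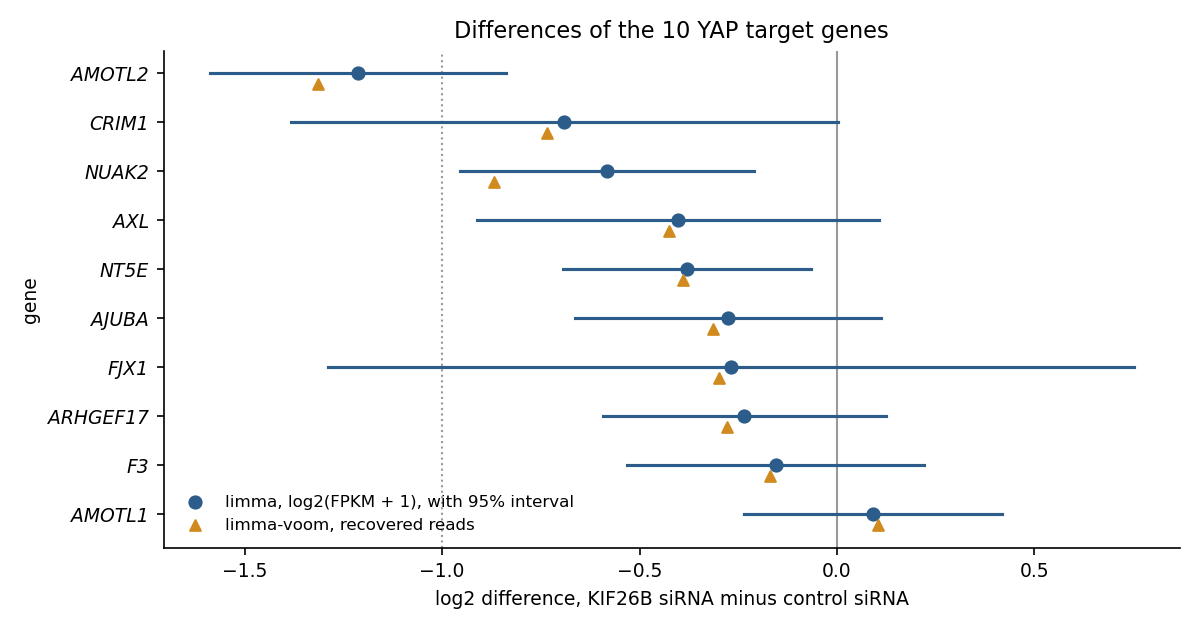
Log2 difference (KIF26B siRNA minus control siRNA, log2(FPKM + 1)) of each of the 10 genes, with a point for the estimate and a line for its 95% interval from limma. The intervals of AMOTL2, NUAK2 and NT5E lie below 0, that of CRIM1 ends at 0.0032, and the interval of FJX1 is the widest.

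NUAK2 (ENSG00000163545, chromosome 1, 205302063 to 205321745) encodes a kinase of the AMPK family that supports YAP activity and acts on myosin. It was the lowest of the 10 genes, at 2.75 and 3.02 FPKM in the control libraries and at 1.41 and 1.79 FPKM after KIF26B siRNA, which came from 186, 256, 104 and 111 reads. The groups did not overlap, with the KIF26B siRNA libraries at 49.0% and 61.9% of the control mean. The groups differed by -0.58 on the log2 scale (SE 0.13, 95% interval -0.95 to -0.21), at an unadjusted P of 0.0123 and an adjusted p of 0.248 in limma. Without control siRNA replicate 1 or 2 the difference was -0.63 and -0.53 and the unadjusted P in limma was 0.0899 and 0.136, with the spread taken from the KIF26B siRNA pair alone. At this level the added 1 FPKM shrinks the difference, which was -0.87 in limma-voom on recovered reads. The paralog NUAK1 was at 5.00 and 4.68 FPKM in the control libraries and at 3.72 and 3.39 FPKM after KIF26B siRNA (log2 difference -0.36, unadjusted P = 0.0373 and adjusted p = 0.287 in limma). Of the 5 genes around the NUAK kinases, CAB39 of the activating LKB1 complex and the myosin phosphatase subunit PPP1R12A were also lower at an unadjusted P below 0.05, by -0.42 and -0.58, while STK11 and STRADA were not.

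ARHGEF17 (ENSG00000110237, chromosome 11, 73308276 to 73369388) encodes a guanine nucleotide exchange factor. It was at 5.83 and 5.00 FPKM in the control libraries and at 4.28 and 4.603 FPKM after KIF26B siRNA. The control libraries differed by more than the KIF26B siRNA libraries did, by 1.16-fold against 1.08-fold. On the log2 scale the difference was -0.23 (SE 0.13, 95% interval -0.59 to 0.12), with an adjusted p of 0.429 in limma. The antisense gene ARHGEF17-AS1 shares 9.87% of the exon bases of ARHGEF17. Since use of the strand in counting is not stated, the reads of these genes cannot be told apart there. The same holds for genes on the opposite strand of AMOTL1, CRIM1 and AXL, which share 4.9%, 2.4% and 1.3% of their exon bases.

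FJX1 (ENSG00000179431, chromosome 11, 35618460 to 35620865) is the human relative of four-jointed, a Golgi kinase that acts on Fat cadherins. It was at 7.65 and 8.40 FPKM in the control libraries, at 9.53 FPKM in KIF26B siRNA replicate 1 and at 4.31 FPKM in replicate 2. One library was above both controls and the other below both, so that the groups overlapped, and the 2 KIF26B siRNA libraries differed by 2.21-fold. A log2 difference of -0.27 was found (SE 0.37, 95% interval -1.29 to 0.75), with an adjusted p of 0.738 in limma. It was 0.22 without KIF26B siRNA replicate 2 and -0.76 without replicate 1. Of the 6 Fat and Dachsous cadherins, only FAT1 was high enough to be tested, at 145, 147, 144 and 106 FPKM in the order of libraries used above, with no call.

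Counted together, 1 of the 10 genes, AMOTL2, passed the thresholds of the study in the downward direction, where 0.606% of all genes tested did, and none passed them upward. At an unadjusted P below 0.05, 3 of the 10 were lower (AMOTL2, NUAK2 and NT5E) and none was higher, and 8.68% of all genes tested were lower. This count was 1 without either control library, where 1.71% and 1.62% of all genes were lower, and 6 without KIF26B siRNA replicate 1 or 2, where 23.6% and 22.7% were. After adjustment 0 of the 10 passed in limma, and 0% of all genes did, since the smallest adjusted p was 0.242, although 2385 genes had an unadjusted P below 0.05. In 8 of the 10 genes both control libraries were above both KIF26B siRNA libraries, with AMOTL1 and FJX1 as the exceptions, against 27.8% of all genes tested. The median log2 difference was -0.33 over the 10 genes and -0.01 over all genes tested, and 9 of the 10 were below 0, against 51.6% of all. These counts describe a list put together with earlier results of these libraries in view.

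The 2 KIF26B siRNA libraries did not move the genes to one degree. In FPKM, replicate 1 was above both controls in AMOTL1 and FJX1 and replicate 2 in AMOTL1, and each was below both in the other genes. How many of all genes tested lie below both controls in a single library was not counted. AJUBA, CRIM1, FJX1 and AMOTL1 were lower in replicate 2, and the other 6 were lower in replicate 1. The levels differed between the KIF26B siRNA libraries by 1.07-fold (NT5E) to 2.21-fold (FJX1), and between the control libraries by 1.001-fold to 1.16-fold. The difference exceeded the 95% range of counting noise for 8 of the 10 genes in the KIF26B siRNA pair and for 1 in the control pair, against 67.8% and 20.7% of tested genes holding 20 or more reads in that pair. Replicate 2 had the lower KIF26B level, at 8 reads against 43 in replicate 1. Whether the order of the pair goes with that level was not tested. The share of all genes tested that were lower in replicate 2 was not counted.

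The other 14 genes of the signature were given for comparison, and 8 were high enough to be tested. Of these, 6 were below 0 and 3 were lower at an unadjusted P below 0.05, with a median log2 difference of -0.29. CCN2, a matricellular protein, was at 5.21 and 5.18 FPKM in the control libraries and at 1.02 and 1.04 FPKM after KIF26B siRNA, a log2 difference of -1.61. The added 1 FPKM shrinks the CCN2 difference, which was -2.32 in limma-voom on recovered reads. CCN1 was lower by -0.75 and ASAP1, an Arf GTPase-activating protein, by -0.74. MYOF, a membrane repair protein, was the only one of the 8 higher at an unadjusted P below 0.05, from 55.3 and 55.5 FPKM to 99.3 and 78.3 FPKM (log2 difference 0.66, unadjusted P = 0.0147 and adjusted p = 0.248 in limma). AMOTL2 was the only gene of the list of 10 past the thresholds, and CCN2 the only one of the 8.

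The regulators themselves had no call among 6 tested. YAP1 was at 19.95 and 20.11 FPKM in the control libraries and at 31.4 and 22.9 FPKM after KIF26B siRNA, a log2 difference of 0.40 (95% interval -0.12 to 0.93). WWTR1, which encodes TAZ, was at 13.6 and 13.6 FPKM in the control libraries and at 10.4 and 6.55 FPKM after KIF26B siRNA, a log2 difference of -0.65 (95% interval -1.31 to 0.0017, adjusted p = 0.304 in limma). TEAD1 was at 24.8 and 24.1 FPKM in the control libraries and at 19.6 and 19.9 FPKM after KIF26B siRNA, a log2 difference of -0.29 (95% interval -0.59 to 0.0086). TEAD2, TEAD3 and TEAD4 had differences of 0.25, 0.13 and 0.00. In limma-voom on recovered reads WWTR1 and TEAD1 differed by -0.71 and -0.31 (unadjusted P = 0.0301 and 0.0265, adjusted p = 0.240 and 0.234). None of the other regulators passed an unadjusted P of 0.05 there.

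The genes with a profile most like AMOTL2 over the 4 libraries were sought among 7839 genes averaging at least 5 FPKM, by the Euclidean distance between their log2 values relative to the control mean. The nearest were FAM234B at a distance of 0.0702, DEPDC1B at 0.0925, SHCBP1 at 0.172, ENSG00000230291 at 0.204 and CA2 at 0.255. FAM234B was at 8.75 and 8.88 FPKM in the control libraries and at 3.08 and 3.62 FPKM after KIF26B siRNA. DEPDC1B was at 13.7 and 14.4 FPKM in the control libraries and at 5.26 and 6.35 FPKM after KIF26B siRNA. The likeness rests on 4 libraries and one group difference, and was not tested.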

How the data were processed

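Poly(A) mRNA of HCT116 cells was sequenced as paired-end reads. According to the submitters' processing notes, the authors aligned reads with HISAT2 2.0.5 to hg38 and counted with featureCounts 1.5.0-p3, whereas the study's methods name hg19. The files hold no coordinates, so positions come from RefSeq GRCh38.p14. The deposited values, 1 per gene and library, were FPKM, a unit read from the values. Of 58735 identifiers, 56513 were matched to GENCODE symbols. Whole reads were recovered from the steps of the FPKM for all 34638 genes above 0 (tolerance 0.002). Where more than 1 gene length gave whole reads, the choice used the annotated length. The reads of some genes may therefore be off by a common factor. Totals were 19611129, 24839057, 21540885 and 19191455 reads for the control siRNA pair and then the KIF26B siRNA pair, each in the order of replicates. Depth therefore limits low genes most. The FPKM of KIF26B siRNA replicate 2 were scaled to 1.81e+07 fragments, fewer than its recovered reads, so they stood higher than under scaling by recovered reads. In the other libraries the 2 totals lay closer together.

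Log2(FPKM + 1) was compared with limma 3.58.1 (R 4.3.3; empirical Bayes, 2 residual and 2.00 prior degrees of freedom) in 14523 genes averaging at least 1 FPKM, with Benjamini-Hochberg adjustment over all of them. The authors used DESeq2, which needs counts and was not run. Calls are at the study's thresholds, an unadjusted P below 0.05 and a log2 difference beyond 1. Named genes were all 10 members, KIF26B, the other signature genes and fixed lists of relatives, partners and regulators, with values for those at an unadjusted P below 0.05 and for some others chosen after their values were seen (AMOT, BMP4, YAP1, WWTR1, TEAD1 and FAT1), and the 5 genes nearest to AMOTL2. One of these lists is not reported here. The members and lists were chosen with earlier results of these data known. Alternatives were the replicate block, other filters, a pseudocount of 0.1, other scalings, limma-voom on recovered reads, a variance trend and leaving out each library. Scripts were tested on simulated data. Tables and plots were made in Python 3.11.15 with pandas 2.3.3, numpy 2.4.6 and matplotlib 3.10.9.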

Additional observations from a re-analysis of the deposited data

How the results depend on the processing

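AMOTL2 passed the thresholds of the study under all 12 alternatives, with log2 differences from -1.32 to -1.10. In the fits of all 4 libraries AMOTL2 was the only one of the 10 genes past them. When 1 library was left out, the CRIM1 difference ranged from -1.01 (without KIF26B siRNA replicate 1) to -0.37 (without KIF26B siRNA replicate 2). At an unadjusted P below 0.05, the number lower was 1 to 6 over these fits, 1 without either control library (1.71% and 1.62% of all genes) and 6 without KIF26B siRNA replicate 1 or 2 (23.6% and 22.7% of all genes), against 3 with all. At an adjusted P below 0.05 it was 0 to 3, with AMOTL2, CRIM1 and FJX1 at 0.0470, 0.0470 and 0.0482 in limma without KIF26B siRNA replicate 1. There 15.5% of all genes passed, and the lone library was assumed to vary like the controls. FJX1 ranged from -0.76 without KIF26B siRNA replicate 1 to 0.22 without KIF26B siRNA replicate 2. Of all genes, 88 were lower and 118 higher past the thresholds. These counts were 52 and 69 with at least 1 FPKM in every library, 203 and 217 with a pseudocount of 0.1, and 210 and 202 in limma-voom on recovered reads. Leaving out 1 library gave 132 to 230 lower and 155 to 333 higher. Over the 10 genes' own differences, 104 fits kept direction and side of an unadjusted P of 0.05, 10 moved below it, 5 moved above it and 1 reversed.

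Adding a replicate block to limma gave 98 lower and 135 higher genes in all. The block kept 3 of the 10 genes below an unadjusted P of 0.05, with CRIM1 (adjusted p = 0.417 in limma) in place of NT5E (adjusted p = 0.451). Of all genes tested, 5.93% were lower at an unadjusted P below 0.05 in that fit. Same-numbered libraries did not deviate together (r = -0.003 over 14523 genes). A single correlation cannot show whether they share more than a number. The 10 genes held 104 to 5394 reads per library. The KIF26B siRNA pair differed beyond the 95% range of counting noise in 8 of them, against 67.8% of the tested genes with at least 20 reads.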
